A study of Homo sapiens with 6 samples.

Results

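Cytosolic ribosomal protein genes encode the proteins of the cytoplasmic ribosome, and they were taken as all Ensembl rows of the deposited table whose symbol is RPL or RPS followed by a number, with RPLP0, RPLP1, RPLP2 and RPSA. This gave 84 genes of 19974 Ensembl rows, 52 of the large subunit and 32 of the small subunit. Of these, 82 were tested (50 large and 32 small), having reached 1 FPKM in 3 or more of the 6 libraries. FPKM, the unit of the table, is the number of fragments scaled to the gene's length and the library's total. RPL10L was listed at 0 in every library. RPL3L was listed at 0.0955 FPKM in overexpression 3, 0.0665 FPKM in vector 3 and 0 in the other 4 libraries. They are paralogs of RPL10 and RPL3, and neither was tested.

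The values come from 3 RNA-seq libraries of SACC-83 cells with circMYBL1 overexpression and 3 of SACC-83 cells with the vector control. SACC-83 is an established human line derived from an adenoid cystic carcinoma of the salivary gland. CircMYBL1 is named as a circular RNA of the gene MYBL1. The genotype labels of overexpression 1, 2 and 3 read circMYBL1, circMYBL2 and circMYBL3, the titles mark all 3 as overexpression, and the design text names circMYBL1 only. The vector libraries carry the genotype label WT. The sequencing was done to look for its targets, and no promoter, clone or treatment is named for either group. Whether libraries of a group are separate cultures is not stated. The p-values therefore cover the spread of these 6 libraries only, and it may be technical.

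Each cytoplasmic ribosome pairs a large subunit, which forms peptide bonds, with a small subunit, which decodes the mRNA. Most of its proteins are needed in equal numbers, and cells make them together. Most of their mRNAs begin with a cytosine followed by a run of pyrimidines, the 5′ terminal oligopyrimidine (TOP) motif, through which LARP1 and mTOR signalling control their translation. RPL5 and RPL11 also bind MDM2 when assembly fails, which links ribosome assembly to p53.

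The row of MYBL1, the host gene, held 359, 44.0 and 2025 FPKM in overexpression 1, 2 and 3, against 9.04, 7.15 and 10.3 FPKM in vector 1, 2 and 3. A gene row does not separate circular from linear RNA, so it does not measure the circular RNA. Of 8 epithelial markers, 7 were at or above 1 FPKM in every library, KRT8 and KRT18 among them. Of 4 salivary acinar markers, 3 were listed at 0 in every library. The immune markers PTPRC and CD3E and the fibroblast markers COL1A2 and PDGFRA were listed at 0 in every library. The summed FPKM of a library lay between 371776 and 408826.

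The ribosomal protein genes were among the most abundant mRNAs of these cells. Their median mean level was 421 FPKM (408 for the large subunit and 521 for the small subunit), against 9.83 FPKM over all 12064 genes tested. Of the 82 genes, 73 averaged at least 100 FPKM and 10 averaged at least 1000 FPKM. They held 11.3%, 9.77% and 11.1% of the summed FPKM in overexpression 1, 2 and 3, against 12.0%, 10.4% and 11.1% in vector 1, 2 and 3. The groups overlapped, and in both groups the lowest share was that of the library numbered 2. Between 35 and 40 of the 100 most abundant genes of each library were ribosomal protein genes.

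The most abundant gene of the large subunit was RPL35, a protein near the exit of the peptide tunnel. RPL35 had 1995, 1479 and 1777 FPKM in the overexpression libraries, against 1925, 1410 and 1670 FPKM in the vector libraries. RPL7A, RPL12 (a stalk-base protein) and RPL41 (the shortest ribosomal protein) followed with RPLP0, all with libraries between 1109 and 1654 FPKM. RPLP0, the scaffold of the stalk that recruits elongation factors, had 1452, 1109 and 1396 FPKM in the overexpression libraries, against 1628, 1149 and 1528 FPKM in the vector libraries. In the small subunit, RPS2, at the mRNA entry channel, led with 2086, 1232 and 1758 FPKM in the overexpression libraries, against 1827, 1304 and 1965 FPKM in the vector libraries. For RPL35, RPLP0 and RPS2 the groups overlapped, and the library numbered 2 was the lowest of its group.

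At the low end stood genes for short proteins and paralogs. RPS28 and RPS29 lay between 68.0 and 125 FPKM, and RPL37 between 62.3 and 162 FPKM. The paralogs lay lower still. RPS27L was between 3.90 and 7.38 FPKM, which was 0.899% to 1.20% of RPS27 in the same library. RPL39L was between 2.63 and 5.68 FPKM, or 0.479% to 1.15% of RPL39. RPL7L1, which is known as an assembly factor, reached 6.85% to 9.02% of RPL7, and RPL22L1 reached 29.9% to 40.7% of RPL22. RPL26L1 stood at 2.42% to 2.92% of RPL26 in the libraries numbered 2 and at 3.68% to 4.72% in the other 4, without overlap.

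**Figure D1:**
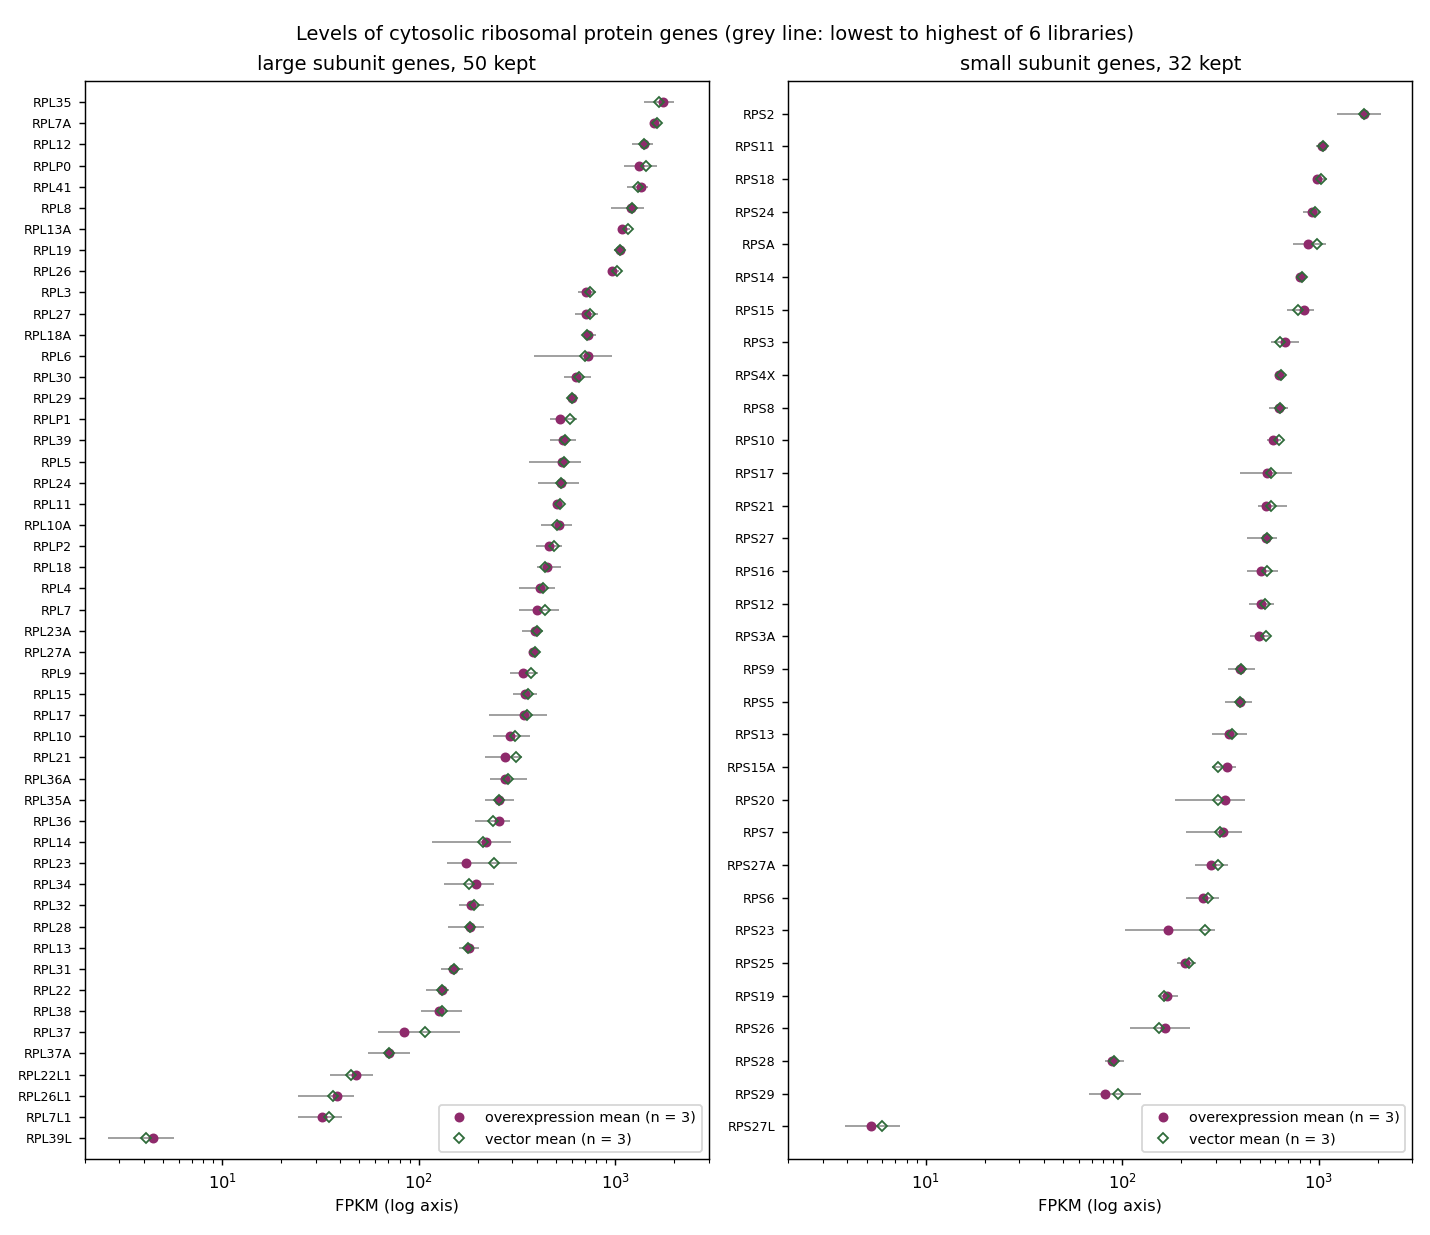
FPKM of the ribosomal protein genes tested, on a log axis, with the subunits in separate panels. Markers give the overexpression mean and the vector mean (n = 3 each), and a grey line runs from the lowest to the highest of 6 libraries. Most genes lie between 100 and 1000 FPKM, 10 average at least 1000 FPKM, and the paralogs RPL39L and RPS27L lie below 10.

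The level of the median ribosomal protein gene varied less over the libraries than that of the median gene. The coefficient of variation over 6 libraries had a median of 12.8%, against 19.2% over all genes tested, and was under 10% for 25 ribosomal protein genes. It was lowest for RPL27A, at 2.98%, and highest for RPL37, at 38.0%. The highest library exceeded the lowest by more than 2 times for 8 genes, among them RPL6 (2.48 times), RPL14 (2.53 times), RPL37 (2.60 times) and RPS23 (2.87 times). Pearson's r between libraries over the 82 genes lay between 0.976 and 0.996 on the log2(FPKM + 1) scale, as a description across genes.

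The balance of the subunits was within a narrow range. Summed FPKM of the large subunit divided by that of the small subunit was 1.57, 1.58 and 1.56 in the overexpression libraries, against 1.57, 1.55 and 1.58 in the vector libraries. The median gene of the large subunit had 425, 332 and 420 FPKM in the overexpression libraries, against 448, 360 and 427 FPKM in the vector libraries. The median gene of the small subunit had 546, 414 and 516 FPKM in the overexpression libraries, against 576, 450 and 468 FPKM in the vector libraries. In each library the small-subunit median stood above the large-subunit median, and in each group the library numbered 2 had the lowest value of both.

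**Figure D2:**
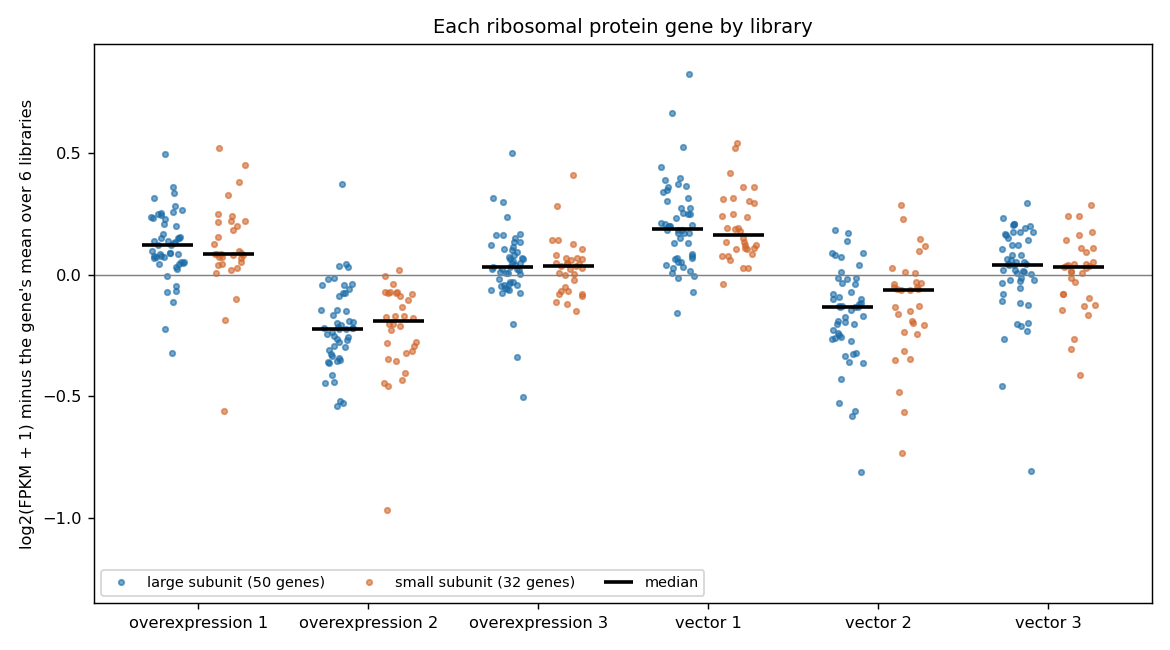
Level of each gene tested in each library, as log2(FPKM + 1) minus the gene's mean over 6 libraries, with 50 large-subunit and 32 small-subunit genes as points and the median as a black line. In both subunits the medians of overexpression 2 and vector 2 lie below 0 and those of the other 4 libraries above it.

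No ribosomal protein gene passed the test between overexpression and vector. None of the 82 genes was called by limma at an adjusted p under 0.05 in the fit on group alone, nor in the fit with the replicate number as a block. The background was 0.00% of all 12064 genes without the block and 0.0995%, 12 genes, with it. At an unadjusted p under 0.05, limma gave 0 of 82 genes (65 of all genes) without the block and 3 of 82 (868 of all genes) with it, namely RPL23, RPS23 and RPL21. The median log2 fold change was -0.03 for the large subunit and -0.05 for the small subunit, against 0.03 over all genes tested. Values below 0 were found for 32 of 50 large-subunit and 24 of 32 small-subunit genes (68.3% of the 82), against 41.9% of all genes tested. In the fit on group alone, these counts changed when a library was left out. Without overexpression 2 they were 13 of 50 and 10 of 32, with medians of 0.05 and 0.03. Without vector 1 they were 16 of 50 and 11 of 32, with medians of 0.03 and 0.03. Each such fit leaves a replicate number in a single group, so group and number are partly mixed in it. The share of all genes in these fits is not given here. Whether the ribosomal protein genes still lay below it therefore cannot be read from these counts. No gene had all overexpression libraries above all vector libraries, where the background was 2.50%. For 2 genes, RPL13A and RPL26, all overexpression libraries lay below all vector libraries, where the background was 0.845%.

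RPL23, a protein of the subunit interface that like RPL5 and RPL11 binds MDM2, had the smallest p. Its gene lies on GRCh38 chr17:38847865-38853843, minus strand. RPL23 had 222, 139 and 158 FPKM in the overexpression libraries, against 318, 182 and 226 FPKM in the vector libraries. Each overexpression library was below the vector library of its number, with ratios of 0.698, 0.763 and 0.699, and the groups overlapped because overexpression 1 lay above vector 2. Its means were 173 ± 43.5 FPKM in overexpression and 242 ± 69.4 FPKM in vector libraries (SD, n = 3 each). The limma fit with the block gave a log2 fold change of -0.47 (SE 0.09), with an adjusted p of 0.117. Without the libraries numbered 2, that fit gave an adjusted p of 0.0127 for RPL23, with few degrees of freedom left.

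RPS23, a protein of the decoding centre, had the largest difference. Its gene lies on GRCh38 chr5:82273358-82278577, minus strand. RPS23 had 137, 103 and 271 FPKM in the overexpression libraries, against 297, 249 and 248 FPKM in the vector libraries. Overexpression 1 and 2 stood far below all vector libraries, with ratios of 0.463 and 0.416 to the vector library of the same number, and overexpression 3 stood among them, with a ratio of 1.09. The limma fit with the block gave a log2 fold change of -0.75 (SE 0.22), with an adjusted p of 0.478. Without the libraries numbered 3 that limma fit gave -1.18 with an adjusted p of 0.000472. Without those numbered 2 it gave -0.49 with an adjusted p of 0.0224. Both fits have few degrees of freedom left, and the first leaves out the pair with the ratio of 1.09.

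The other genes differed less. RPL21 had 308, 219 and 299 FPKM in the overexpression libraries, against 328, 276 and 337 FPKM in the vector libraries, and its limma fit with the block gave -0.20 (SE 0.09) with an adjusted p of 0.683. The stalk protein RPLP1 had 572, 467 and 538 FPKM in the overexpression libraries, against 638, 506 and 623 FPKM in the vector libraries. RPSA, the laminin receptor homolog of the small subunit, had 972, 740 and 950 FPKM in the overexpression libraries, against 1049, 801 and 1094 FPKM in the vector libraries. Each overexpression library of these 3 genes was below the vector library of its number, while the groups overlapped. At the other end, RPS20 had 423, 241 and 337 FPKM in the overexpression libraries, against 397, 186 and 341 FPKM in the vector libraries, with a log2 fold change of 0.15 (SE 0.10) and an adjusted p of 0.781 in limma with the block. RPS15A had 381, 286 and 356 FPKM in the overexpression libraries, against 314, 311 and 294 FPKM in the vector libraries. In both genes the groups overlapped.

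The pairs differed in single genes more than in their medians. The median log2 difference within a number was -0.05, -0.05 and -0.02 for numbers 1, 2 and 3, with SDs over the 82 genes of 0.245, 0.200 and 0.242. In all 3 pairs 14 genes (17.1%) were lower with overexpression, against 11.9% of all genes tested, and 3 (3.66%) were higher, RPL35, RPL36 and RPS26, against 16.5% of all genes tested. Some genes differed in opposite directions between pairs. RPL14 had 165, 201 and 292 FPKM in the overexpression libraries, against 297, 227 and 117 FPKM in the vector libraries, so its ratio was 0.556 for number 1 and 2.49 for number 3. RPL37 had 77.8, 62.3 and 112 FPKM in the overexpression libraries, against 162, 85.0 and 75.7 FPKM in the vector libraries. RPL14 and RPL37 were named after their values were seen. With group means removed, overexpression 1 correlated over the 82 genes at 0.595 with vector 3, against 0.109 with vector 1. Overexpression 3 correlated at 0.528 with vector 1, against -0.196 with vector 3. Whether the numbers are the right pairs for these genes was not tested.

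**Figure D3:**
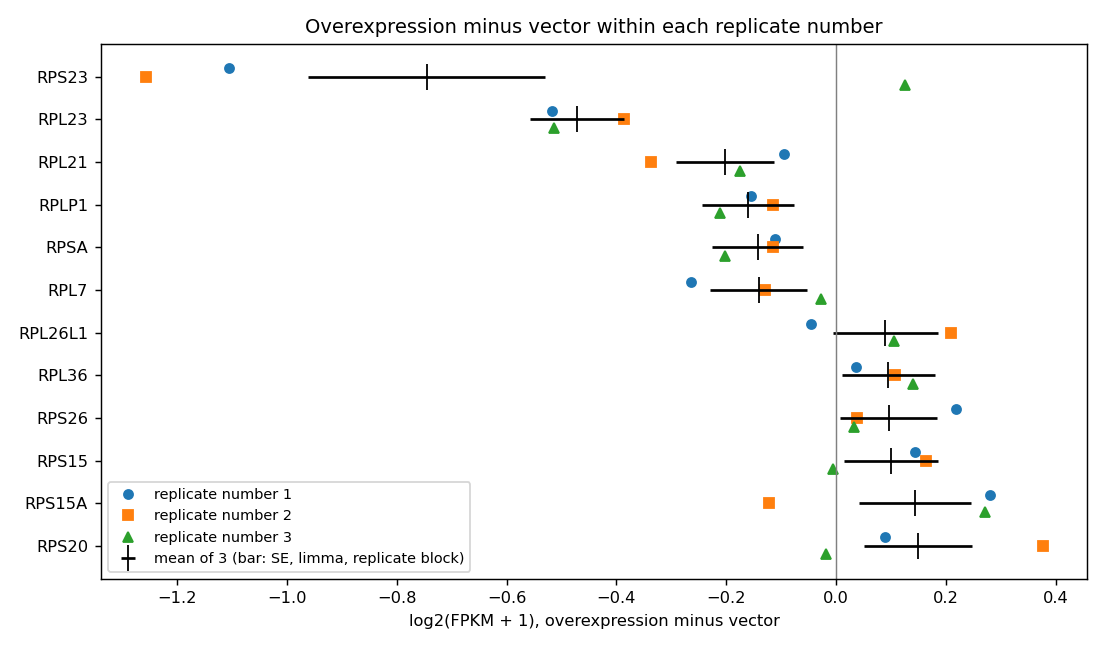
Log2 difference of overexpression minus vector within replicate numbers 1, 2 and 3, for the ribosomal protein genes with the smallest p in each direction. The p-values are those of the limma fit with the replicate block. Each gene has a point for each number, and a black mark gives their mean with its SE from that fit. The means of RPS23 and RPL23 lie furthest from 0.

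The replicate number was the larger axis of difference. Libraries numbered 2 were set against those numbered 1 and 3 in both groups together, with group in the fit; the meaning of the numbers is not labelled. Limma called 42 of 82 genes lower in number 2 (29 of 50 large-subunit genes, 58.0%, and 13 of 32 small-subunit genes, 40.6%) at an adjusted p under 0.05, where the background was 21.0%, and 0 higher, where the background was 29.4%. The difference between the subunits was not tested. The median log2 difference was -0.29 for the large subunit and -0.23 for the small subunit, against 0.07 over all genes tested. Both libraries numbered 2 lay below the other 4 for 52 of 82 genes, where the background was 25.7%, and above them for 1, RPL29, where the background was 35.9%. Quantile normalization, which forces one distribution on all libraries, gave 12 called lower, 7 called higher and a median of -0.03, against -0.02 over all genes. Over the 462 other genes with a mean of at least 100 FPKM, 224 (48.5%) were called lower in number 2 and 73 higher, with a median of -0.24, beside 51.2% of the ribosomal protein genes called lower.

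RPL6, a large-subunit surface protein, differed most. Its gene lies on GRCh38 chr12:112405190-112418838, minus strand. RPL6 had 471 FPKM in overexpression 2 and 388 FPKM in vector 2, against 961 and 762 FPKM in overexpression 1 and 3 and 927 and 799 FPKM in vector 1 and 3. Both libraries numbered 2 lay below the other 4, at 49.8% of their mean, with a log2 difference of -1.0 (SE 0.10) and an adjusted p of 5.21e-05 in limma. RPS20, a head protein of the small subunit, had 241 and 186 FPKM in overexpression 2 and vector 2, against 423, 337, 397 and 341 FPKM in overexpression 1 and 3 and vector 1 and 3. RPL17, at the tunnel exit, had 250 and 227 FPKM in overexpression 2 and vector 2, against 414, 373, 448 and 393 FPKM in overexpression 1 and 3 and vector 1 and 3. RPL5, which carries the 5S rRNA into the large subunit, had 386 and 365 FPKM in overexpression 2 and vector 2, against 629, 590, 671 and 606 FPKM in overexpression 1 and 3 and vector 1 and 3. Limma gave log2 differences of -0.81 (adjusted p = 0.000208) for RPS20, -0.77 (adjusted p = 0.000181) for RPL17 and -0.73 (adjusted p = 0.000177) for RPL5, each with both libraries numbered 2 below the other 4. RPL11, the partner of RPL5 in the 5S particle, had 485 and 502 FPKM in overexpression 2 and vector 2, against 543, 490, 541 and 535 FPKM in overexpression 1 and 3 and vector 1 and 3, and was not called.

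At the upper end, RPL39L had 5.68 and 4.85 FPKM in overexpression 2 and vector 2, against 4.96, 2.63, 3.62 and 3.78 FPKM in overexpression 1 and 3 and vector 1 and 3. The numbers overlapped, and limma gave a log2 difference of 0.42 (SE 0.16) with an adjusted p of 0.0504. RPL29 had 618 and 634 FPKM in overexpression 2 and vector 2, against 618, 580, 602 and 571 FPKM in overexpression 1 and 3 and vector 1 and 3, a log2 difference of 0.08, and its libraries numbered 2 lay above the other 4 by a narrow margin. RPL27A, the steadiest gene, had 384 FPKM in both overexpression 2 and vector 2 and 380 to 412 FPKM in the other 4. Number 3 against number 1 gave 0 genes called of 82, where the background was 0.547%, 9 at an unadjusted p under 0.05 (2275 of all genes), and a median log2 difference of -0.13.

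**Figure D4:**
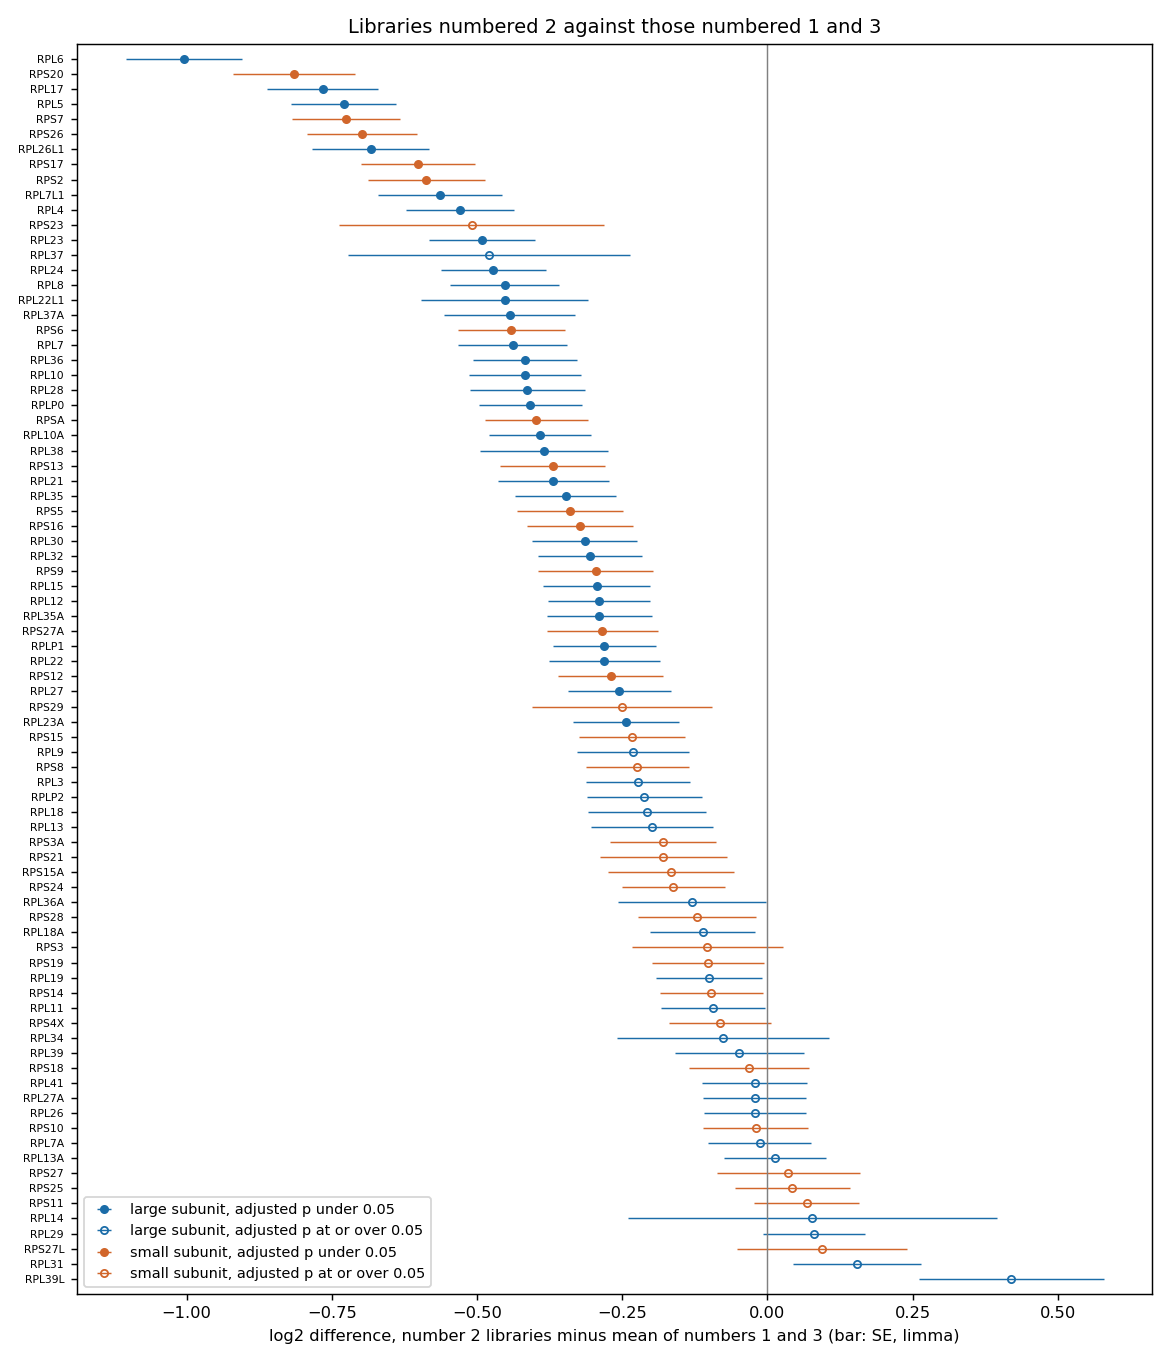
Log2 difference of the libraries numbered 2 minus the mean of those numbered 1 and 3, from limma with group in the fit, with SE bars, for each ribosomal protein gene tested. Filled points mark an adjusted p under 0.05, 42 genes, all to the left of 0 with FPKM as deposited (quantile normalization gave 12 lower and 7 higher), and RPL6 lies furthest to the left at -1.0.

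Cell type markers and other genes of the ribosome pathway also differed with number 2. The basal keratin KRT5 had 347 and 412 FPKM in overexpression 2 and vector 2, against 94.9 to 142 FPKM in the other 4 libraries. The simple-epithelial keratin KRT7 went the other way, with 304 and 234 FPKM in overexpression 2 and vector 2, against 428 to 679 FPKM in the other 4. Both libraries numbered 2 lay above the other 4 for 3 of 8 epithelial and 3 of 4 myoepithelial markers, where the background was 35.9% of all genes tested. One of these myoepithelial markers, MYH11, reached only 0.237 FPKM. They lay below the other 4 for 2 of 8 epithelial markers (KRT7 and KRT8), where the background was 25.7%. VIM had 163 and 148 FPKM in overexpression 2 and vector 2, against 281 to 343 FPKM in the other 4. The summed endothelial markers had 1.38 and 1.71 FPKM in overexpression 2 and vector 2, against 0.101 to 0.289 FPKM in the other 4. Of these sums PECAM1 held 0.985 and 1.27 FPKM in overexpression 2 and vector 2. The fibroblast sum, nearly all COL1A1, had 8.70 and 11.1 FPKM in overexpression 2 and vector 2, against 2.95 to 4.63 FPKM in the other 4. Their part in the differences of the ribosomal protein genes was not tested. In bulk libraries a change in the mix of cells and a change within cells cannot be told apart.

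The rest of the pathway is given as counts beside the same background of 21.0% lower and 29.4% higher. Of 38 ribosome assembly factors, limma called 36 lower in number 2, with a median log2 difference of -0.91, and 35 with a median of -0.85 under quantile normalization. RRS1, which works in 5S particle assembly, had 10.6 and 6.36 FPKM in overexpression 2 and vector 2, against 34.0, 24.5, 31.0 and 23.9 FPKM in overexpression 1 and 3 and vector 1 and 3. RPF2, its partner, had 5.61 and 4.93 FPKM in overexpression 2 and vector 2, against 20.2, 14.97, 17.8 and 14.03 FPKM in the other 4 in the same order. Both libraries numbered 2 lay below the other 4 for both genes. Of 14 genes of RNA polymerase I and its factors, which transcribe rRNA, 11 were called lower, and of 77 mitochondrial ribosomal protein genes, 56 were called lower with a median of -0.44 (58 and -0.45 under quantile normalization). Of 21 other TOP mRNAs, with a median level of 241 FPKM, 11 (52.4%) were called lower. That is near the 48.5% of the 462 other genes with a mean of at least 100 FPKM. Under quantile normalization 9 of the 21 were called lower and 1 higher. Of 17 regulators of ribosomal protein transcription and translation, 5 were called lower and 1 higher. Of 8 genes that respond to ribosomal stress, 5 were called higher and 1, MYBBP1A, lower. MDM2 had 10.7 and 13.5 FPKM in overexpression 2 and vector 2, against 5.79, 9.19, 7.02 and 8.26 FPKM in overexpression 1 and 3 and vector 1 and 3, with an adjusted p of 0.0024 in limma. Both libraries numbered 2 lay above the other 4.

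Between overexpression and vector, limma called 0 genes of any of these lists with or without the block. At an unadjusted p under 0.05 with the block, limma gave 868 of all 12064 genes. Among the lists it gave 3 of 77 mitochondrial ribosomal protein genes, 3 of 17 regulators, 1 of 8 stress genes and 1 of 21 other TOP mRNAs. That last gene was EEF1A1, the elongation factor that brings aminoacyl-tRNA to the ribosome, with 2521, 2785 and 2096 FPKM in the overexpression libraries, against 3889, 3148 and 4673 FPKM in the vector libraries. All overexpression libraries of EEF1A1 lay below all vector libraries, where the background was 0.845% of all genes tested. For EEF1A1 limma with the block gave a log2 fold change of -0.65 (SE 0.15) with an adjusted p of 0.285. Of ribosomal protein genes whose symbols fall outside the rule, FAU and RPL36AL were called lower in number 2 and RACK1 was not.

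The start sites were read from the RefSeq promoter table (GRCh38.p14), which matched 67 of the 84 genes. A single start was used for each gene, and all genes were treated alike. Where a gene had several listed starts, the start with the longest pyrimidine run was kept. The shares with a C or a run below are therefore not free of that selection, which favours genes with several listed starts. A C at the start stood in 50 of 67 genes (74.6%), against 18% of all 27305 genes of the table. A C followed by a pyrimidine run of at least 5 bases in all stood in 47 (70.1%), against 5.14% of all genes. The letters CCGGAAG hold the core that ETS factors bind. They were found on either strand of the 300-base window in 23 of 67 genes (34.3%), against 10.7% of all genes of the table. Those include genes not tested here. Among tested genes other than the ribosomal protein genes, 1838 held the letters and 6991 did not, a share above 10.7%. TATAAA was found in 7 of 67 genes (10.4%), against 12.0% of all genes of the table.

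The stretches below run from 100 bases before the start to 20 bases from it. They show the 3 matched genes with the largest fall in number 2 (RPS20 and RPL5, which ranked above RPS7, have no entry in the table), 3 that moved least in it, and RPS23, with the largest group difference. Capitals mark CCGGAAG in either direction and a pyrimidine run of at least 5 bases from the start, which follows the 100 bases before it.
RPL6: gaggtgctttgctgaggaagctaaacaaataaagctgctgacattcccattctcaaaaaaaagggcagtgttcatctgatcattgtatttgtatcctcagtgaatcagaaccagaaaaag
RPL17: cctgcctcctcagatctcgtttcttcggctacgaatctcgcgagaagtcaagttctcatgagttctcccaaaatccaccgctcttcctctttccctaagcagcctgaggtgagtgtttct
RPS7: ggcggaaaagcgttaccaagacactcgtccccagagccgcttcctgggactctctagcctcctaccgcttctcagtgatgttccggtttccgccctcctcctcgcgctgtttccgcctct
RPL13A: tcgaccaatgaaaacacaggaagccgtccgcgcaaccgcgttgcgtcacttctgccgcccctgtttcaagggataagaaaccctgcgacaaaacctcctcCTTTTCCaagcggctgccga
RPL7A: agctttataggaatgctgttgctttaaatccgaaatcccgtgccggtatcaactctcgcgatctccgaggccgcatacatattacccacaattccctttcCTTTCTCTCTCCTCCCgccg
RPS10: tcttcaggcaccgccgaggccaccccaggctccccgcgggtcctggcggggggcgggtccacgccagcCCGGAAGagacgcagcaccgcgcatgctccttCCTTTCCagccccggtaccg
RPS23: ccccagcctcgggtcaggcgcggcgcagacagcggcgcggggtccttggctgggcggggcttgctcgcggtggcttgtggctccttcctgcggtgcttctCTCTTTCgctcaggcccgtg
In GRCh38.p14 they lie at chr12:112411423-112411542 (minus) for RPL6, chr18:49492446-49492565 (minus) for RPL17, chr2:3575160-3575279 (plus) for RPS7 and chr19:49487508-49487627 (plus) for RPL13A. RPL7A lies at chr9:133348118-133348237 (plus), RPS10 at chr6:34426050-34426169 (minus) and RPS23 at chr5:82278335-82278454 (minus). RPL6, RPL17 and RPS7 have neither a pyrimidine run of 5 at the listed start nor CCGGAAG in the window, while RPL13A, RPL7A, RPS10 and RPS23 have such a run. RPL13A has CCGGAAG outside the stretch shown, and RPS10 has it within. The listed start of RPL6 lies 7396 bases inside the span of the gene in GENCODE, so its window is not that of the outermost start, and those of the other 6 genes lie 4 to 223 bases inside.

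The windows of genes called lower in number 2 held CCGGAAG less often than those of the other genes tested, as a description chosen after the values were seen and with no test. It was found in 4 of 32 genes called lower (12.5%) and in 19 of 34 not called (55.9%). The 23 genes with it had a median log2 difference in number 2 of -0.09 and the 43 without it one of -0.29. Among other genes tested, the 1838 with it had a median of -0.06 and the 6991 without it one of 0.09, the opposite order. Under quantile normalization the medians of the ribosomal protein genes were 0.12 with and -0.07 without the motif. A match says only that these letters are in the window.

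**Figure D5:**
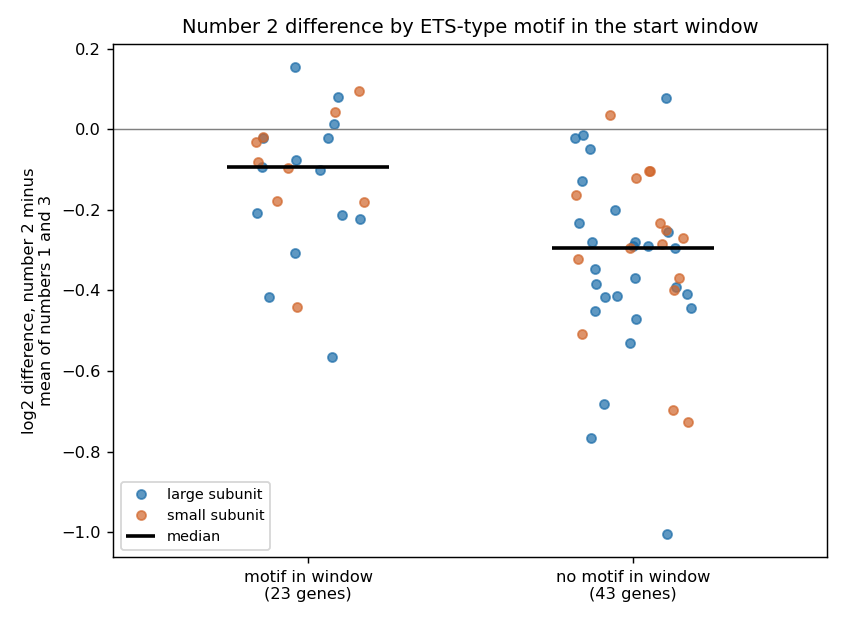
Log2 difference of the libraries numbered 2 minus the mean of those numbered 1 and 3 for ribosomal protein genes with CCGGAAG in the 300-base start window (23 genes) and without it (43 genes), with medians as lines and the subunits in separate colours. The median is -0.09 with the motif and -0.29 without it, and the groups of points overlap.

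Counting limits all these values. GENCODE release 29 lists 1145 pseudogenes named after the 84 genes, with at least 1 for 77 of them and 91 for RPL23A, and reads can be shared between a gene and its copies. Across the 82 genes, Spearman's rho of the number 2 difference was -0.117 with the number of pseudogenes, 0.181 with GC content, -0.159 with exonic length and 0.173 with mean FPKM, as descriptions.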

How the data were processed

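RNA was extracted with TRIzol and libraries of purified mRNA were made with a NEBNext Ultra kit, per the labels' protocols. The submitters' processing notes name HISAT2 and the build GRCh38. How fragments were counted, and on which annotation, is not given in the sources used here. Per library, the deposited values are FPKM as the authors computed them, which divides fragments by the length of the gene and the total of the library, so depth is unknown and counting error cannot be set. Whether strand was used is not stated.

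The 12064 genes that reached 1 FPKM in 3 or more libraries were kept. Group was the only term of a 2-sided limma fit (version 3.58.1, R 4.3.3, trended eBayes) to log2(FPKM + 1), and p-values were adjusted by Benjamini-Hochberg over all kept genes. Fold changes on this scale understate those of low genes. With 3 libraries a group, exact permutation could not reach a p below 0.1. With group means removed, libraries of the same number correlated at 0.725, 0.881 and 0.529 over all genes, above the limit of 0.1, so the numbers were taken as pairs and a fit with the number as a block was run. Over the 82 ribosomal protein genes alone these correlations were 0.109, 0.785 and -0.196. Across numbers, overexpression 1 correlated at 0.595 with vector 3 and overexpression 3 at 0.528 with vector 1 over these 82 genes. Over all genes these values across numbers were 0.412 and 0.424. Number contrasts were fitted with group. Named genes are, by rule, the most and least abundant members, those with the smallest p in the block fit, those with the largest number 2 difference, and stalk, p53-linked and paralog genes with their parents. RPS7, RPL13A, RPL14, RPL27A, RPL37 and RPS10 fall outside the rule and were named after their values were seen. Alternatives were other pseudocounts, filters and scalings, a GC and length correction, the block and leaving out libraries. Members and lists were chosen with earlier results of these data known. Of the list of snoRNA host genes, none was analysed here. Positions, length and GC content come from GENCODE release 29.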

Additional observations from a re-analysis of the deposited data

How the results depend on the processing

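The group comparison gave 0 of 82 ribosomal protein genes called by limma in each alternative run except 2 fits with the replicate block that left out a number: with one number left out of both groups, the count ran from 0 to 2. RPL23 and RPS23 were called without number 2 and RPS23 without number 3, with few degrees of freedom left in each fit. For number 2 against numbers 1 and 3, the 42 genes called became 21 with no filter and 19 with quantile normalization, and ran from 21 (without overexpression replicate 2) to 48 (without vector replicate 3) when 1 library was left out, with 23 without vector replicate 2. For number 3 against number 1 the count ran from 0 to 1. The median log2 fold change of the large subunit, -0.03, was -0.047 with TPM, -0.057 with trimmed mean factors, -0.062 with quantile normalization, -0.054 with TPM without ribosomal protein genes and -0.072 with a GC and length correction, with the replicate block giving the same values, and ran from -0.11 to 0.051 when 1 library was left out. That of the small subunit, -0.05, was -0.11 with the GC and length correction, with or without the block, and ran from -0.12 to 0.033. Without mitochondrially encoded genes in the sum, the ribosomal protein share was 11.6% in overexpression and 12.2% in vector libraries. With the GC and length correction, with or without the block, RPS15 was -0.025 and RPL36 was -0.041. When 1 library was left out, the log2 fold change ran from -0.17 to 0.29 for RPL26L1, -0.047 to 0.23 for RPL36, -0.29 to 0.0027 for RPL7, -0.18 to 0.37 for RPS20 and -0.14 to 0.34 for RPS26. The number 2 difference of RPS27L was -0.086 with quantile normalization and -0.063 with the GC and length correction, and ran from -0.066 to 0.25. Leaving out 1 library also leaves its number in a single group, so group and number are partly mixed in those fits. The cause of these shifts was not tested. The replicate block changed no other call of a ribosomal protein gene. Depth is unknown, so its effect on low genes such as RPL39L and RPS27L cannot be given.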

Other observations

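The 5 other genes whose level was most like the median of the ribosomal protein genes over the 6 libraries were PTDSS1 (Pearson's r = 0.997), PPP1CC (0.997), DDX54 (0.996), TMEM70 (0.996) and ASB1 (0.995), chosen for this likeness on log2(FPKM + 1). PPP1CC, a catalytic subunit of protein phosphatase 1, had 86.5, 65.9 and 76.0 FPKM in the overexpression libraries, against 84.4, 66.6 and 78.3 FPKM in the vector libraries. Both of its libraries numbered 2 lay below the other 4.

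The read-through row RPL36A-HNRNPH2 had 19.5, 21.4 and 19.2 FPKM in the overexpression libraries, against 19.7, 0 and 0 FPKM in the vector libraries. Summed with RPL36A, the values were 376, 252 and 260 FPKM in the overexpression libraries, against 311, 295 and 267 FPKM in the vector libraries, and the groups overlapped. RPL17-C18orf32 had 0, 1.09 and 2.09 FPKM in the overexpression libraries, against 9.46, 7.34 and 0 FPKM in the vector libraries. How reads were divided between a gene and its read-through row is not given in the sources used here.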
